A study of Mus musculus with 8 samples.

Results

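The small leucine-rich proteoglycans were followed through 8 genes, Dcn, Bgn, Aspn, Lum, Fmod, Kera, Prelp and Ogn, among 17099 genes measured in whole mouse embryos at embryonic day 9.0. They were read from every array probe that carries one of these 8 gene names, 11 probes of 41174 in all. The genes were chosen by values of these same arrays, null against wild type. Their differences between the genotypes are therefore given as a description, and no test of them is read as support. The groups were Arid3b-null embryos, which lack the ARID-domain transcription regulator Arid3b, and wild-type embryos. Each group held 4 pools of 3 to 4 whole embryos, with 1 one-colour Agilent array per pool. The labels do not say whether the pools came from separate litters, so p-values measure only the spread between these pools. The sources used here do not give the strain or how the null allele was made.

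Small leucine-rich proteoglycans are secreted matrix proteins with a core of leucine-rich repeats, most of which carry glycosaminoglycan chains. They bind collagen and shape fibril assembly, and several also bind growth factors or cell-surface receptors. Decorin and biglycan are close relatives that carry chondroitin or dermatan sulfate and bind TGF-beta, and decorin also binds the receptors Egfr and Met. Lumican, fibromodulin and keratocan belong to the keratan sulfate branch and are best known from cornea, tendon and cartilage.

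Because decorin and biglycan are close relatives, the 2 probes that carry their measured signal are shown here, in mm7 coordinates as the array files give them. The Dcn probe A_51_P334104 lies at chr10:97080086-97080145 and the Bgn probe A_52_P162486 at chrX:68879864-68879923, both on the plus strand. Capitals mark the longest run of bases that the 2 probes share, 7 bases.
Dcn: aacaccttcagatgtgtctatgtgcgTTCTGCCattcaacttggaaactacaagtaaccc
Bgn: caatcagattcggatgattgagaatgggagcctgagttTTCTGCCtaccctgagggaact
Set against the other 41173 probes of the array, the Dcn probe shared a run of at most 14 bases with any of them, and 0 shared 15 or more. Both comparisons are between probe sequences only, and binding of the Dcn probe to Bgn RNA or to other transcripts was not tested.

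All values are log2 of the processed signal minus the 75th percentile of that array, so 0 is a bright probe and each unit is a doubling. A probe's level cannot be set against another probe's. Each array had 59.87% to 64.05% of its probes well above background. The targeted gene was lower in every null pool: the brightest of 3 Arid3b probes read 1.89, 1.83, 1.85 and 2.48 in null pools 1 to 4, against 3.47, 3.29, 3.39 and 3.31 in wild-type pools. All 3 Arid3b probes stayed well above background in the null pools, and the sources used here do not say whether they lie in the deleted part. Pools 1 and 2 of both genotypes shared slide 1 and pools 3 and 4 shared slide 2. On both slides the null arrays sat at positions 3 and 4 and the wild-type arrays at positions 1 and 2, so position and genotype cannot be told apart.

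Of the 8 genes, 4 were well above background on all 8 arrays: Dcn, Bgn, Lum and Fmod. Dcn was higher in every null pool than in any wild-type pool, and the other 3 overlapped. Among these 4, 1 passed an adjusted p of 0.05 in limma between the genotypes, where 4.20% of all genes did, and 2.85% did so in the higher direction. One of them, again Dcn, had groups that did not overlap, where 16.1% of all genes had. Dcn was past the threshold under 14 of 19 other settings. It was not past it with normexp background correction, with no scaling, without wild-type pool 4 or within either slide alone. These settings refit the same arrays, and the genes were chosen on this contrast, so nothing is read from any of these counts. The median difference of the 4 genes was 0.14, beside -0.01 over all genes.

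Decorin, the class I proteoglycan that binds collagen, had processed signals of 1043, 840, 1202 and 1140 in null pools 1 to 4, against 633, 598, 799 and 575 in wild-type pools. On the log2 scale these were -0.54, -0.61, -0.38 and -0.43 in null pools, against -1.43, -1.16, -1.07 and -1.37 in wild-type pools. Every null pool was brighter than every wild-type pool. Dcn averaged -0.49 ± 0.10 in null embryos and -1.26 ± 0.17 in wild-type embryos (SD, n = 4 each), a difference of 0.77 ± 0.10 (SE), or 1.70-fold. Within slide 1 the null mean was 1.65-fold above wild type, and within slide 2 it was 1.76-fold above it. By size of difference Dcn was 319th of 17099 genes from the highest, with 1.86% of genes above it. In these whole-embryo pools, a change in the number of cells of a type and a change in RNA per cell cannot be told apart.

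A second probe named Dcn, A_52_P252726 at chr10:97043200-97043259, was not well above background on any array, and neither was a second Bgn probe, A_52_P19711 at chrX:68878335-68878394. The Dcn result therefore rests on 1 probe.

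Biglycan, the other class I member measured, read -3.20, -3.28, -3.13 and -3.22 in null pools 1 to 4, against -3.20, -3.74, -3.13 and -3.28 in wild-type pools. Its groups overlapped, and only wild-type pool 2 lay below the rest. Bgn averaged -3.21 ± 0.06 in null embryos and -3.34 ± 0.27 in wild-type embryos (SD, n = 4 each), a difference of 0.13 ± 0.13 (SE), and of 0.00 without wild-type pool 2. Aspn, which encodes asporin, the third class I gene here, was not well above background on any array.

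**Figure D1:**
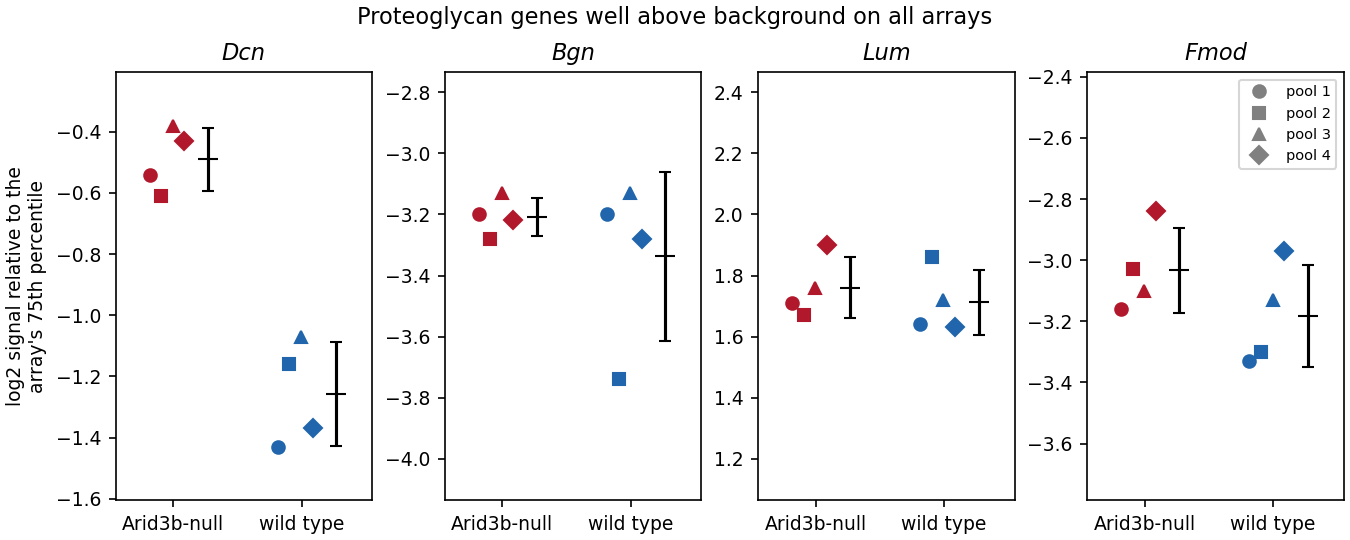
Log2 signal relative to the 75th percentile of each array (vertical axis) for Dcn, Bgn, Lum and Fmod, null pools at left and wild-type pools at right in each panel, with 1 point per pool and bars for the mean ± SD (n = 4). Each panel has its own range of the same height: the 4 null pools of Dcn sit between -0.61 and -0.38, all above the wild-type pools, and the other 3 genes overlap.

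Lumican, a keratan sulfate proteoglycan of class II, read 1.71, 1.67, 1.76 and 1.90 in null pools 1 to 4, against 1.64, 1.86, 1.72 and 1.63 in wild-type pools. The 2 groups lay within the same narrow range. Lum averaged 1.76 ± 0.10 in null embryos and 1.71 ± 0.11 in wild-type embryos (SD, n = 4 each), a difference of 0.05 ± 0.09 (SE), and its sign turned under median scaling (-0.04) and with no scaling (-0.02). Leaving out 1 pool at a time put the difference between 0.00, without null pool 4, and 0.10, without wild-type pool 2.

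Fibromodulin, a class II protein that binds collagen fibrils, read -3.16, -3.03, -3.10 and -2.84 in null pools 1 to 4, against -3.33, -3.30, -3.13 and -2.97 in wild-type pools. The groups overlapped, although each null pool was above the wild-type pool of its number. Fmod averaged -3.03 ± 0.14 in null embryos and -3.18 ± 0.17 in wild-type embryos (SD, n = 4 each), a difference of 0.15 ± 0.11 (SE), and of 0.09 without null pool 4 at the low end and 0.22 without wild-type pool 4 at the high end of the leave-out values. With normexp background correction the differences of Bgn and Fmod turned to -0.13 and -0.06.

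Keratocan, the corneal member of class II, was well above background only in wild-type pool 2, at -4.49, a processed signal of 59.7. Osteoglycin, a class III protein, was well above background in null pool 2 and in wild-type pool 4 only. Prelp, a class II member known from connective tissue, was read by 2 probes. Probe A_52_P486260 was well above background in 0 of 4 null pools and in 3 of 4 wild-type pools. By it the difference was -0.15, or 0.902 times the wild-type level, and the groups overlapped. Its null signals lay above the lowest signal well above background on their arrays, so no bound is given. Probe A_51_P439846 was well above background in null pool 4 and in wild-type pools 3 and 4, and the other probe was above it in wild-type pools 1, 3 and 4. A bound, given below for Mstn, sets the mean of the brighter group against a floor on each array of the dimmer group. That floor is the lowest signal well above background, or the dim probe's own signal where that is higher.

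**Figure D2:**
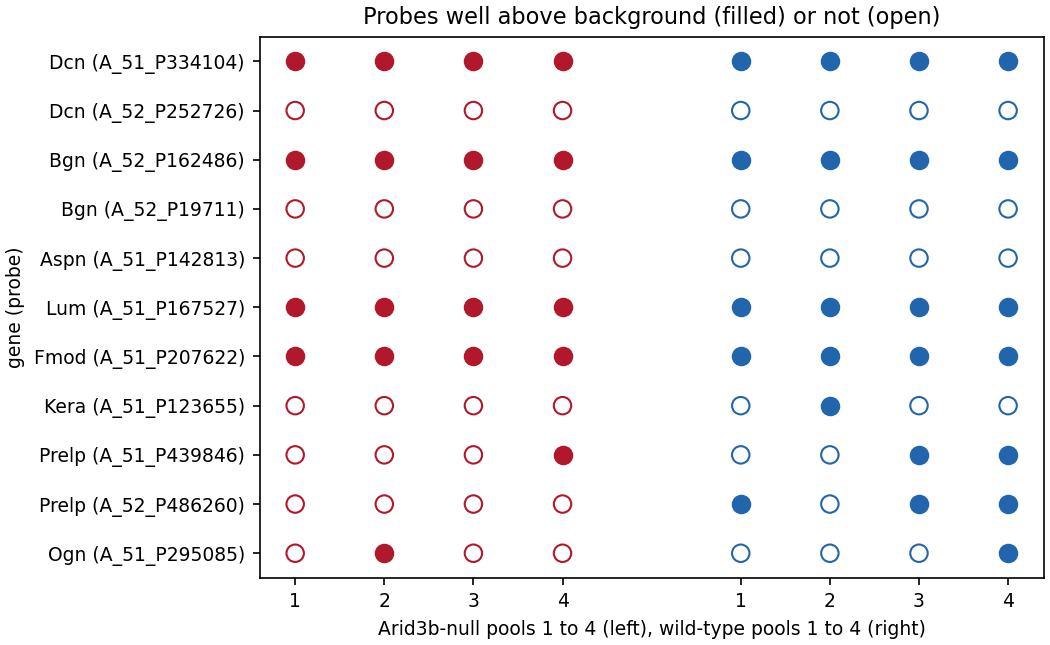
Each row is a probe of the 8 genes and each column a pool, null pools 1 to 4 at left and wild-type pools 1 to 4 at right; a filled circle marks a probe well above background and an open one a probe that was not. The rows of 4 probes, for Dcn, Bgn, Lum and Fmod, are filled throughout, and 3 probes are open in all 8 pools.

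The slides gave a contrast that the choice of these genes did not use. Slide 2 was set against slide 1 with genotype in the model, and 12.4% of all genes passed an adjusted p of 0.05 in limma. None of the 4 proteoglycan genes passed, and 4 genes are too few to set against that share. Fmod averaged -3.01 ± 0.13 on slide 2 and -3.20 ± 0.14 on slide 1 (SD, n = 4 each), with a limma difference of 0.20 ± 0.08 (SE) and an adjusted p of 0.187. Dcn differed by 0.12 ± 0.09 (SE) between the slides, with a limma adjusted p of 0.445. Bgn differed by 0.17 ± 0.12 and Lum by 0.03 ± 0.08 (SE), with limma adjusted p of 0.432 and 0.84. These slide differences depended on the background correction: with normexp Bgn was at 0.87 ± 0.32 and Fmod at 0.76 ± 0.34 (SE), and neither passed.

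Pool by pool, the null pool exceeded the wild-type pool of the same number by 0.89, 0.56, 0.69 and 0.94 for Dcn. For Lum the same differences were 0.07, -0.18, 0.04 and 0.27. Dcn was thus higher in null embryos in 4 of 4 pairs, and Lum in 3 of 4. For Dcn this follows from groups that do not overlap, so the count adds nothing to that. For Bgn the differences were 0.00, 0.46, 0.01 and 0.06, so its mean difference came mostly from pair 2. For Fmod they were 0.17, 0.28, 0.03 and 0.13.

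The authors' deposited table, in log2 values of their own scaling, held 6 of the 11 probes. In the authors' deposited table Dcn differed by 0.67 between null and wild-type means, Lum by 0.10, Fmod by 0.09 and Bgn by 0.04. Dcn had the largest difference of these 4 genes there too. These values come from the same arrays and the contrast that the genes were chosen on, so this is no support. Kera sat at the lowest value of the authors' deposited table in all 4 null pools and in wild-type pool 1.

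**Figure D3:**
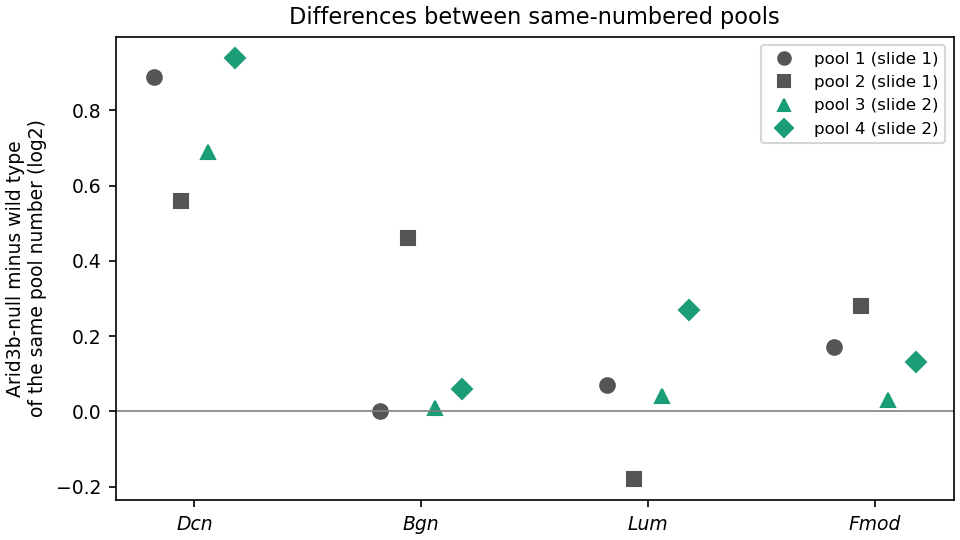
Null minus wild type of the same pool number (log2, vertical axis) for Dcn, Bgn, Lum and Fmod, 1 point per pair, grey for slide 1 and green for slide 2. The 4 pairs of Dcn lie between 0.56 and 0.94, and 1 pair of Lum lies below 0, at -0.18.

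Dcn, Lum and Kera are neighbours. In mm7 the probes of Dcn, Lum, Kera and Epyc follow each other on chromosome 10, with 54.9 kb from the Dcn probe to that of Lum, 41.0 kb from Lum to Kera and 67.6 kb from Kera to Epyc. Of this row, Dcn was the one whose null and wild-type pools did not overlap. Prelp and Fmod lie 132.3 kb apart on chromosome 1, while Aspn and Ogn share a stretch of chromosome 13 with Ecm2 and Omd, and Bgn is on the X.

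The genes whose deviations from the genotype means ran closest to those of Dcn over the 8 pools were Tac2 (Pearson r 0.96), Hrob (0.956) and Ubqln5 (0.955), of 13808 genes compared. Lum followed Dcn less closely (0.681), while Bgn (-0.0736) and Fmod (0.0816) did not follow it. For Bgn the closest were Rnf152 (0.968), Adcy8 (0.967) and Zfp451 (0.965). For Lum they were Phactr1 (0.954), Prpf4 (0.942) and Prnd (0.938), and for Fmod they were Rsrc1 (0.987), Pdia3 (0.974) and Catsper2 (0.972). The pools share their arrays and scaling, and these correlations are a description.

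The rest of the pathway was tested in the same limma fit over all genes, in 5 lists with 88 of 102 genes measured. One gene rose in null embryos, 1 fell, and 86 did not pass, where 4.20% of all genes passed. An unadjusted limma p under 0.05 was found for 20.7% of all genes. With the replicate number as a block in limma, 13.7% of all genes passed.

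The other small leucine-rich proteoglycans gave no call among 5 measured genes, and 0 had an unadjusted limma p under 0.05. Ecm2, Omd, Optc and Podn were not well above background on any array. Epyc, the epiphyseal cartilage member next to Kera, had the smallest p, with a difference of -0.27 ± 0.18 (SE) and a limma adjusted p of 0.467. Without null pool 1, its lowest pool at -5.80, the difference was -0.09. The Epyc probe used was well above background on 7 arrays, and a second Epyc probe on 0.

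The enzymes that build and modify the sugar chains gave 1 call among 35 measured genes, where 4.20% of all genes passed. Of these enzymes 9 had an unadjusted limma p under 0.05, as had 20.7% of all genes, and their median difference was 0.02. Pxylp1, the phosphatase that removes phosphate from the xylose of the linkage region, fell in null embryos. It read 0.17, 0.05, 0.19 and 0.40 in null pools 1 to 4, against 0.90, 0.99, 0.92 and 0.97 in wild-type pools. The groups did not overlap. Its mean was 0.20 ± 0.15 in null embryos and 0.95 ± 0.04 in wild-type embryos (SD, n = 4 each), a limma difference of -0.74 ± 0.09 (SE), 0.598 times the wild-type level, with an adjusted p of 0.00691. The call was lost with normexp (-0.71) and within slide 1 (-0.84) and slide 2 (-0.65), at differences of similar size. With the replicate block Chst5, a sulfotransferase of the keratan sulfate family, also passed as higher in null embryos, by 0.39 ± 0.08 (SE), with a limma adjusted p of 0.0433.

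Binding partners and receptors of these proteoglycans gave 0 calls among 23 measured genes in limma, with 9 at an unadjusted p under 0.05, where 20.7% of all genes had one. Their median difference was 0.25, and 18 had a higher mean in null embryos, as had 48.7% of all genes. Mstn, the growth factor myostatin, which decorin binds, had the smallest p. It was well above background in 0 of 4 null pools and in all 4 wild-type pools, so its wild-type level was at least 1.29-fold higher. The Mstn probe was kept for testing only because of its wild-type pools. Its limma adjusted p of 0.0605 is therefore given as a description and not read as support. Pools of the same number deviated together, and they also shared a slide. Once the replicate number was a block in limma, 9 genes of this list passed. In that fit 13.7% of all genes passed, and 7.78% as higher in null embryos. Those higher in null embryos under the block were Col1a2, Ccn2, Igf1r, Lrp1, Met, Tlr2, Egfr and Col6a1. Mstn was lower, with the same limit on its p. Of the receptors among them, Met differed by 0.38 ± 0.06, Egfr by 0.28 ± 0.06 and Igf1r by 0.37 ± 0.07 (SE). Lrp1 differed by 0.40 ± 0.08 and Tlr2 by 0.38 ± 0.05 (SE). Their limma adjusted p under the block ran from 0.0238 for Tlr2 to 0.0401 for Egfr. Kdr, a further receptor of the list, did not pass. Ccn2, a matrix growth factor modulator, had 3 null values, since its spot on null pool 3 was an outlier.

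Proteases that process matrix and proteoglycans gave 0 calls among 8 measured genes in limma, with a median difference of -0.14. Of these proteases 3 had an unadjusted limma p under 0.05, as had 20.7% of all genes. Bmp1, which cleaves the precursors of collagen and biglycan, had the smallest p: its mean was 0.53 ± 0.20 in null embryos and 0.88 ± 0.12 in wild-type embryos (SD, n = 4 each), with a limma adjusted p of 0.143. With the replicate block, Pcolce2, an enhancer of procollagen processing, was lower in null embryos, with a difference of -0.35 ± 0.06 (SE) and a limma adjusted p of 0.0319.

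Other matrix and cell-surface proteoglycans gave 1 call among 17 measured genes, where 4.20% of all genes passed, with a median difference of 0.03. Gpc6, a glypican anchored to the cell surface, rose in null embryos. It read -0.37, -0.48, -0.81 and -0.59 in null pools 1 to 4, against -1.60, -1.62, -1.65 and -2.04 in wild-type pools. The groups did not overlap, and wild-type pool 4 was the lowest. Its mean was -0.57 ± 0.19 in null embryos and -1.73 ± 0.21 in wild-type embryos (SD, n = 4 each), a limma difference of 1.16 ± 0.13 (SE), 2.24-fold, with an adjusted p of 0.00657. The call was lost with normexp, where the difference was 0.84, and within slide 1 (1.18) and slide 2 (1.14). With the replicate block Agrn, Gpc3 and Sdc4 also passed as higher in null embryos.

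**Figure D4:**
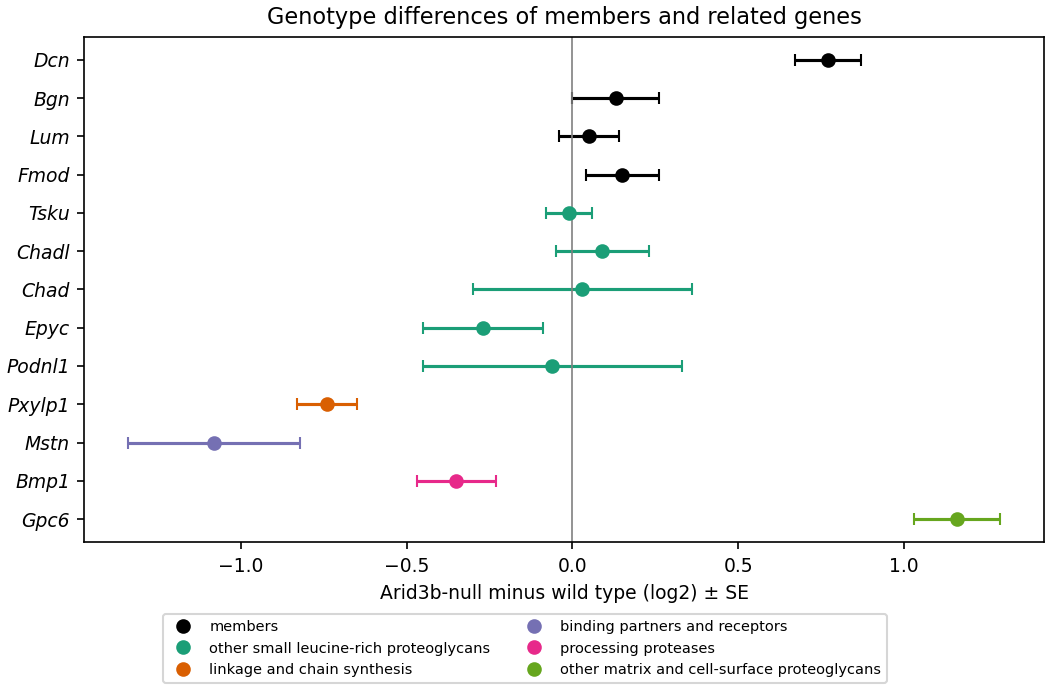
Null minus wild type on the log2 scale ± SE (horizontal axis) for the 4 measured member genes (black), the 5 other small leucine-rich proteoglycans and the named gene of each further list, coloured by list. Gpc6 lies at 1.16, Dcn at 0.77 and Pxylp1 at -0.74; the value of Mstn is of a probe not well above background in null pools.

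Markers of the cell types that a whole-embryo pool can hold were read for the same pools. Mesenchyme markers, for the cells that make much of the embryonic matrix, were all measured, 8 of 8, and 0 passed in limma. Of these markers 4 had a higher and 4 a lower mean in null embryos, with a median difference of -0.01. Their summed linear level ran over 39.9 to 44.5 in null pools and 39.6 to 43.3 in wild-type pools. Such a sum weighs its brightest probes most, here Prrx2, and dimmer markers count little in it. Decidua and uterine stroma, maternal tissue that may adhere to a dissected embryo, was represented by 4 genes of which 1, Tdo2, was measured. The sums for that list were 0.0391 to 0.142 in null pools and 0.0369 to 0.156 in wild-type pools. Trophoblast sums ran over 0.459 to 0.985 in null pools and 0.565 to 0.859 in wild-type pools, with Gcm1 and Tpbpa not well above background on any array. Prl3b1, the brightest measured gene of that list, was lower in all 4 same-numbered pairs. The dimmer Ascl2 and Elf5 were higher in all 4, and Prl3d1 was lower in 2. Limma adjusted p under the replicate block was 0.104 for Prl3b1, 0.0971 for Ascl2 and 0.0983 for Elf5. Yolk sac sums were 4.95 to 11.4 in null pools and 6.74 to 13.0 in wild-type pools, with Afp the brightest probe. Cubn, a dimmer marker of that list, read 0.38 in null pool 3 and -2.08 in null pool 4. Erythroid sums were 213 to 374 in null pools and 259 to 414 in wild-type pools, and all 5 erythroid markers had a lower mean in null embryos, with a median difference of -0.22. Hbb-y, an embryonic globin, was lower in all 4 same-numbered pairs, with differences of -0.80, -0.23, -0.68 and -0.09, with a limma adjusted p of 0.0863 under the replicate block. Macrophage sums were 0.249 to 0.371 in null pools and 0.27 to 0.35 in wild-type pools. In each of these 6 lists the ranges of the genotypes overlapped and 0 genes passed an adjusted p of 0.05 in limma. An unadjusted limma p under 0.05 was found for 2 trophoblast genes and 1 macrophage gene, and for 20.7% of all genes. With the replicate block, where 13.7% of all genes passed, Pdgfra of the mesenchyme list passed as higher, at 0.24 ± 0.05 (SE, limma adjusted p 0.0458). Prrx1 of the same list was lower in all 4 same-numbered pairs, at -0.16 ± 0.06 (SE), and did not pass. Csf1r of the macrophage list passed as lower in null embryos, at -0.52 ± 0.10 (SE, limma adjusted p 0.0373). The part of these markers in the Dcn difference was not tested.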

How the data were processed

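The files hold intensity values, the scanner's processed signal per spot deposited by the authors for 8 arrays, 1 per pool; per the file headers this signal was background-corrected by Agilent Feature Extraction. The authors also deposited a table of log2 values for 27108 probes, whose scaling the sources used here do not give. Here the intensity was taken to log2 and each array's 75th percentile subtracted. Control spots (1639 of 45018) and outlier spots (87 to 175 per array) were left out. A probe was kept if well above background on at least 4 of 8 arrays, which left 25555 probes, and the brightest kept probe stood for a gene. Gene names were updated through RefSeq (22944 probes by accession, 6664 by symbol, 3108 by older name, and 8458 kept the file's name). limma 3.58.1 in R 4.3.3 was fitted over 17099 genes with Benjamini-Hochberg adjustment, after a test on simulated data. The genes, lists and rules were chosen with earlier results of these data known.

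Named genes were all members, up to 4 called genes per list (or the one with the smallest p), and the 3 most alike genes per member. Pairing was read from replicate numbers in the labels, which do not call them pairs. Same-numbered pools deviated together, with correlations of 0.557, 0.635, 0.522 and 0.426 for pools 1 to 4. They also shared a slide, so these correlations cannot tell pairing from slide. Other settings varied background correction, scaling, filter, value table, blocks and left-out pools; fits within each slide were added after seeing the data. The number of arrays limits the precision.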

Additional observations from a re-analysis of the deposited data

Results flagged for a closer look

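Prelp (probe A_52_P486260) read -5.66 in wild-type pool 2, apart from the other wild-type pools, which ran over -5.15 to -5.06, and the probe was not well above background in that pool. Gpc6 read -2.04 in wild-type pool 4, apart from the other wild-type pools, which ran over -1.65 to -1.60. Both were singled out as 1 sample far from the other 3 of its group. Of 32 groups examined this way 2 were singled out, where chance gives about 1 in 20.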

How the results depend on the processing

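Between the genotypes 718 genes passed in limma, with 67.8% of them higher in null embryos. Other settings gave 0 with normexp (737 at an unadjusted p under 0.05), 204 with median scaling (52.0% higher), 157 with no scaling (79.6%), 164 with no filter (83.5%), 463 with the deposited table, 1370 with slide as a block (58.8%), 2343 with the replicate block (56.8%), 0 within slide 1 (1881 unadjusted) and 0 within slide 2 (2861 unadjusted). Leaving out each pool in turn gave 93 to 628. Of the pathway genes 2 passed, against 0 with normexp, 3 with the deposited table, 5 with slide as a block, 16 with the replicate block, 0 within slide 1 and 0 within slide 2, and 2 to 4 with 1 pool left out. The slide contrast gave 2123 genes, against 28 with normexp, 3732 with the deposited table and 1324 to 2267 with 1 pool left out.

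Dcn had a higher mean in null embryos under all 19 alternatives, from 0.51 with normexp to 0.83. With 1 pool left out the difference ran over 0.71 to 0.83. Dcn was past the threshold under 14 alternatives, but all draw on the arrays that the genes were chosen on, so this count is no support. In the authors' deposited table Dcn averaged 9.94 in null pools and 9.27 in wild-type pools. Lum was -0.06 within slide 1. Pxylp1 and Gpc6 passed under 16 of 19 alternatives, those leaving out 1 pool included, and not under normexp (adjusted p 0.299 and 0.353) or within either slide, where fewer arrays were fitted; the differences stayed between -0.84 and -0.65 for Pxylp1 and between 0.84 and 1.24 for Gpc6 over the 19. Normexp raised the floor of null pool 4 and wild-type pool 4, whose dim end (the 10th percentile of log2 signal) lay at 9.121 and 9.877; its part in the lost calls was not tested. The cause of the other changes was not tested. Median scaling moved the median of all genes to -0.10, and Dcn was 0.68 there.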
